A study of Mus musculus with 28 samples.

Results

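The 8 genes Gabra6, Cbln1, Cbln3, Neurod1, Barhl1, En2, Etv1 and Fat2, known from cerebellar granule cells, were followed along the body axes of the mouse brain. They were chosen by name, as the array probes that a RefSeq table assigns to these symbols, and make up 8 of the 20660 genes named on the array. The method, Transcriptome Tomography, cuts a frozen brain into thin sections along a body axis and pools neighbouring sections as a fraction for an expression array. The brains came from male C57BL/6J mice of 3 weeks, with no treatment or genetic change named in the labels, and 1 mouse was used for each plane. There were 12 coronal, 6 horizontal and 10 sagittal fractions. Per the labels a fraction is 100 sections of 5 µm, or 500 µm, but the study's methods state another thickness, so positions are given as fraction numbers. The label of coronal fraction 12 also names a further fraction pooled with it. Each fraction was hybridised to 1 array, so no position has a replicate, and mouse and plane cannot be told apart.

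Granule cells are the small excitatory neurons of the cerebellar cortex and the most numerous neurons of the brain. They arise from precursors on the surface of the cerebellum, migrate inward past the Purkinje cells in the first weeks after birth, and send parallel fibres onto Purkinje cell dendrites. Gabra6 encodes the alpha-6 subunit of the GABA-A receptor, which is characteristic of mature granule cells. Cbln1 and Cbln3 encode cerebellins, secreted proteins, and Cbln1 is known to organise the synapses of parallel fibres on Purkinje cells. Neurod1, Barhl1, En2 and Etv1 encode transcription factors of the basic helix-loop-helix, homeodomain, engrailed homeodomain and ETS families. Fat2 encodes a large atypical cadherin found along parallel fibres.

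A level here is log2 of the background-subtracted signal of a probe minus the 75th percentile of its array, so 0 is a signal at that percentile. Levels of different probes are not on 1 scale, and only the course of a probe over fractions is compared. For genes with more than 1 probe, the probe of highest mean level over the 28 arrays stands for the gene. A trend with position was tested with limma, as a smooth curve of fraction number fitted within each series, with p-values adjusted over 32364 probes. The spread around that curve in 1 brain is the only error, so these p-values say nothing about other animals. A whole fraction holds many cell types, and fewer cells of a type and less RNA per cell cannot be told apart.

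The axes were read from region markers. The spinal and hindbrain genes Hoxb8, Hoxa5 and Hoxb5 were highest in coronal fraction 1. The olfactory genes S100a5 and Omp were highest in coronal fractions 11 and 12. The coronal numbers therefore run from the caudal to the rostral end of the brain. The 5 hypothalamic neuropeptide genes tested were highest in horizontal fractions 5 or 6, so these numbers run from top to bottom.

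Promoters are shown for Gabra6 and Cbln3, since these 2 genes held the largest shares of their signal in the caudal fractions. The windows are the 250 bases before the RefSeq start (GRCm38.p6), 5′ to 3′ on the gene's own minus strand, with the letters of the NFI half-site TTGGC, on either strand, in capitals. Gabra6 lies at chr11:42321073-42321322 and Cbln3 at chr14:55884257-55884506.
Gabra6: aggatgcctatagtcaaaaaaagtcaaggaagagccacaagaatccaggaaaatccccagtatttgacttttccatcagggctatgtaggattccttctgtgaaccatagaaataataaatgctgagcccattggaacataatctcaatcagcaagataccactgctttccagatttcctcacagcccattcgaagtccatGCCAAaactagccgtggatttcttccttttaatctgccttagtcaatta
Cbln3: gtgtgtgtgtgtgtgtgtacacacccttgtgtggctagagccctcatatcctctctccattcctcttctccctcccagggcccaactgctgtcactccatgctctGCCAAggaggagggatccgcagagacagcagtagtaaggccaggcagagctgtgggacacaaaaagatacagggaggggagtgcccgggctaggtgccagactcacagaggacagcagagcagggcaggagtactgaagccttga
NFI factors are known regulators of granule cell maturation. Each of these windows held 1 match to TTGGC, which 41.5% of all 32851 such windows held. The table had windows for 6 of the 8 genes, 8 windows in all, without Cbln1 and En2. TTGGC was in 4 of the 8 windows. The E-box CAGATG was in 1, one of those of Etv1, against 14.4% of all windows. The ETS core CCGGAA was in 1 window of Barhl1, against 12.0%, and the homeodomain motif TAATTA was in 0, against 4.84%. A match is a description of letters and not a binding site.

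In the coronal series 7 of the 8 genes had a trend with position, while 33.7% of all tested probes did. The 7 genes were highest in fraction 2 or 3, and in each of fractions 5 to 12 they were lower than in fractions 2 and 3. Of all tested probes, 21.0% were highest in fraction 2 or 3. The median fitted range of the 8 genes was 6.69 log2, against 0.90 over all tested probes. Barhl1, by its brighter probe, was the exception. For the other 7 genes the fitted curve was highest in fraction 1, so it misses their lower level there than in fraction 2. A fitted range can therefore differ from the range of the levels. These were 6.92 and 6.56 for Neurod1, and 2.27 and 2.67 for Etv1.

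Gabra6, the receptor subunit, had the steepest profile. Its levels in coronal fractions 1 to 4 were 3.63, 4.91, 4.83 and 2.63. Its level in fraction 5 was -2.88, and in fractions 6 to 12 it was not well above background. The highest fraction was at least 716-fold above the lowest, with the lowest taken at the detection limit of its array. The limma adjusted p of the trend was 0.00116, and the residual SD around the curve was 1.79. The fitted range of 11.70 rests in part on values below detection.

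Of the secreted cerebellins, Cbln3 was highest in coronal fraction 3, and Cbln1 had 6.19 in both fractions 2 and 3. Cbln3 was well above background in only 4 of the 12 coronal fractions, at 0.60, 1.27, 1.72 and -0.83 in fractions 1 to 4. Its highest fraction was at least 89.3-fold above its lowest (limma adjusted p 0.00341). Cbln1 was well above background in every coronal fraction. Its lowest coronal level was 0.09, its median 1.99 and its highest 6.19, a 68.5-fold range (limma adjusted p 0.00222).

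Among the transcription factors, En2, which is also a marker of the midbrain-hindbrain region of the embryo, ranged most. Its lowest coronal level was -2.87, its median -1.60 and its highest 4.43, a 158-fold range (limma adjusted p 0.000638). Neurod1, a factor of neuronal differentiation, ranged from -3.05 through a median of -1.79 to 3.51, which is 94.4-fold (limma adjusted p 0.000499). Both stayed well above background in all 12 fractions, and both were highest in fraction 2. Etv1 had the shallowest course of the 7 genes, with a lowest level of 3.79, a median of 4.65 and a highest of 6.46. Its range was 6.34-fold (limma adjusted p 0.00424). Etv1 is also known from neurons of cortical layer 5 and of the olfactory bulb.

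Fat2, the cadherin, had a lowest coronal level of -1.74, a median of -0.88 and a highest of 4.58. The range was 80.4-fold (limma adjusted p 0.00379). Its levels in the caudal fractions 1 to 4, from 2.25 to 4.58, lay clear of those in fractions 5 to 12, from -1.74 to -0.62.

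**Figure D1:**
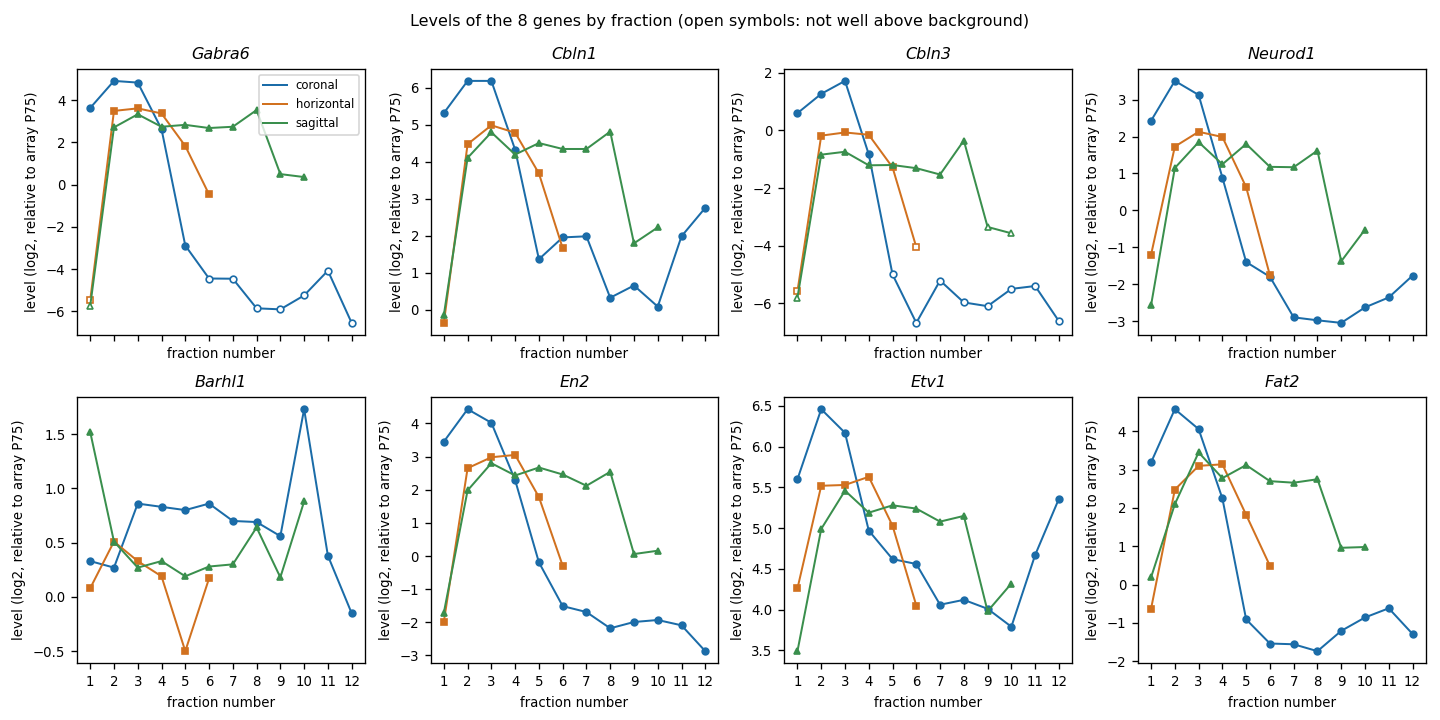
Levels of the 8 genes (y axis, log2 relative to the 75th percentile of the array) by fraction number (x axis) in the coronal, horizontal and sagittal series, 1 array per point. Open symbols are not well above background. Of the 8 genes, 7 are highest in coronal fractions 2 or 3 and Barhl1 is not. Gabra6 goes from 2.63 in coronal fraction 4 to -2.88 in fraction 5.

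The caudal fractions 1 to 4 held most of the signal. Summed on the linear scale over the 12 coronal fractions, they held 99.5% of the Gabra6 signal, 98.1% of Cbln3, 95.3% of En2, 94.2% of Neurod1, 93.9% of Fat2 and 89.2% of Cbln1. For Etv1 the share was 57.2%, and for the brighter probe of Barhl1 it was 30.5%. These shares count each array relative to its 75th percentile and are not amounts of RNA per fraction.

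The edge of the profile lay between coronal fractions 4 and 5, which were hybridised on the same slide. Gabra6 was lower by 5.50 log2 in fraction 5 than in fraction 4, a 45.3-fold step, and only 4 of the 32364 probes had a larger one. Cbln3 was lower by 4.18, where fraction 5 was below detection, so that the step is at least 15.5-fold. The differences were 3.16 for Fat2, 2.96 for Cbln1, 2.48 for En2 and 2.29 for Neurod1. Thus 6 of the 8 genes differed by over 2 log2, as did 225 probes in all, or 0.695% of those tested. The median difference over all tested probes was -0.01. For Etv1 the difference was only 0.35, and its largest step was from fraction 3 to 4 (1.2). With arrays scaled by median or by quantiles the differences of the 6 genes were between 2.23 and 5.44. With normexp background correction, which compresses low signals, they were between 1.87 (Neurod1) and 4.36.

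The trend in the coronal series was also fitted without the change of slide. Fractions 1 and 2, 3 to 10, and 11 and 12 lay on different slides. In fractions 3 to 10 alone, all on 1 slide, 7 genes passed, against 12.9% of all probes. With slide as a term beside the curve in all 12 fractions, 0 of the 8 passed, with adjusted p between 0.0633 and 0.187 for the 7 genes. Their fitted ranges in that fit were from 2.11 (Etv1) to 15.67 (Gabra6), against 2.27 and 11.70 without the term. These are ranges of the curve alone, with the slide term left out. Slide changes along with position, so the fit cannot tell them apart, and a larger range is not a larger effect. For Cbln1 the curve ranged over 7.33 log2 in that fit, while its coronal levels ranged over 6.1. In that limma fit 241 probes passed over all, and 5410 had an unadjusted p under 0.05.

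In the horizontal series 6 of the 8 genes had a trend, against 15.8% of all tested probes. These were Neurod1, Fat2, Etv1, En2, Cbln1 and Cbln3, with limma adjusted p from 0.02 to 0.0409. Gabra6 did not pass (0.068), nor did Barhl1 (0.691). With 1 spline degree of freedom fewer, 0 of the 8 genes passed in the limma fit. Over all probes 1 passed, with 3698 at an unadjusted p under 0.05. The fitted range was then 1.08 for Cbln1 and 0.84 for En2, against 4.99 and 4.77. Gabra6 was not well above background in fraction 1, had levels of 3.49, 3.61 and 3.37 in fractions 2 to 4, and had 1.83 and -0.46 in fractions 5 and 6. The 7 genes other than Barhl1 were highest in fraction 3 or 4.

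The topmost horizontal fraction was the lowest for Gabra6, Cbln1, Cbln3, En2 and Fat2, while Neurod1 and Etv1 were lowest in fraction 6, at -1.76 and 4.05. From fraction 1 to 2 Gabra6 was higher by at least 140-fold, Cbln1 by 28.4-fold, En2 by 24.7-fold and Cbln3 by at least 11-fold. The step was 8.65-fold for Fat2, 7.66-fold for Neurod1 and 2.39-fold for Etv1. All 6 horizontal arrays shared 1 slide. The horizontal count depends on single fractions. Without fraction 3 or without fraction 4, 0 genes passed, and over all probes also 0 passed in these limma fits, with 10053 and 7679 at an unadjusted p under 0.05. For Cbln1 the fitted range was 4.94 and 5.40 in these fits and 4.99 with all fractions, and for En2 it was 4.81, 5.07 and 4.77. Without fraction 6, 1 gene passed, and 4.13% of all probes did. The fitted range was then 5.35 for Cbln1 and 1.38 for Etv1, against 4.99 and 1.67.

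In the sagittal series 2 of the 8 genes had a trend, against 14.7% of all tested probes. They were En2 (limma adjusted p 0.0459) and Fat2 (0.035). Under quantile normalization they were Fat2 (0.0492) and Etv1 (0.0435), and without fraction 2 they were En2 (0.0469) and Gabra6 (0.0437). With arrays scaled by the median 0 genes passed (limma adjusted p 0.0623 for En2 and 0.0698 for Fat2). Their fitted ranges were then 4.48 and 3.36, against 3.96 and 2.73. En2 had a lowest level of -1.71, a median of 2.27 and a highest of 2.80. Fat2 had a lowest level of 0.19, a median of 2.68 and a highest of 3.45. Of the others, Etv1, Cbln1, Neurod1 and Gabra6 had adjusted p between 0.0719 and 0.09, Barhl1 had 0.122 and Cbln3 0.155. The count was 0 without any 1 of fractions 1, 3, 4, 5, 6 and 7, 6 without fraction 9 and 5 without fraction 10. Over all probes 38.8% passed without fraction 9 and 47.1% without fraction 10. Without fraction 1 the limma fit passed 0 probes in all, with 5955 at an unadjusted p under 0.05, and the fitted range of En2 was 2.78 against 3.96. Without any 1 of fractions 3 to 7 that range was 3.75 to 4.24, and for Fat2 it was 2.53 to 2.97, against 2.73.

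Apart from the brighter Barhl1 probe, which was highest in fractions 1 (1.52) and 10 (0.88), the genes were lower in sagittal fractions 1, 9 and 10 than in fractions 2 to 8. Gabra6 was between 2.68 and 3.53 in fractions 2 to 8, at 0.50 and 0.36 in fractions 9 and 10, and not well above background in fraction 1. From fraction 1 to 2 it was higher by at least 94.5-fold, Cbln1 by 19-fold, Neurod1 by 13.1-fold and En2 by 12.9-fold. The step was at least 8.08-fold for Cbln3, 3.76-fold for Fat2 and 2.83-fold for Etv1. Sagittal fractions 1 to 4 lay on 1 slide and 5 to 10 on another. In fractions 5 to 10 alone, and with slide as a term, 0 of the 8 genes passed with limma. With slide as a term the fitted ranges of En2 and Fat2 were 4.55 and 3.08, against 3.96 and 2.73 without it, and in fractions 5 to 10 they were 2.73 and 2.26. The ranges with slide are again of the curve alone, and slide and position change together here too. The fit of fractions 5 to 10 passed 0 probes in all, with 2330 at an unadjusted p under 0.05, and the fit with slide passed 2520, with 9036.

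Fractions at equal distance from the 2 sagittal ends were set side by side. In fractions 5 and 6, 4 and 7, and 3 and 8 the 8 genes had median absolute differences of 0.16, 0.12 and 0.29 log2, and over all tested probes these were 0.19, 0.20 and 0.39. In these pairs 7, 6 and 4 of the 8 genes were higher in the first fraction, and single genes differed by up to 0.63 (Neurod1, 5 and 6) and 0.70 (Fat2, 3 and 8). Of the 7 genes well above background in both fractions 2 and 9, 7 were higher in fraction 2, with a median difference of 1.92, while 67.7% of all probes detected in both were higher in fraction 2, with a median difference of 0.39. Of the 6 genes well above background in both fractions 1 and 10, only Barhl1 was higher in fraction 1, and the median difference was -1.35, while 56.2% of all probes detected in both were higher in fraction 1, with a median of 0.10. Under median, quantile and normexp scaling these signs held, and the median difference was 3.20, 1.85 and 1.76 between fractions 2 and 9 and -1.34, -1.44 and -0.85 between fractions 1 and 10. By quantiles the difference between fractions 2 and 9 was 0.25 for Barhl1, 0.55 for Etv1 and 0.84 for Fat2. The arrays of sagittal fractions 1, 9 and 10 also had the lowest signals at the 75th percentile of all 28 arrays (135, 176 and 205), and the part of this in the low levels there was not tested.

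At the rostral end of the coronal series 4 of the 8 genes had a second maximum, counted where a gene was well above background, above its neighbours and at least 1 log2 above the lowest fraction on the way to the main maximum. The same rule held in coronal fraction 11 or 12 for 5.96% of all tested probes, and for 13.4% of the 6804 that were highest in fraction 2 or 3. Cbln1 reached 2.76 in fraction 12, which was 2.67 above fraction 10. Etv1 reached 5.36 in fraction 12, which was 1.57 above fraction 10. Neurod1 reached -1.77 in fraction 12, 1.28 above fraction 9, and Fat2 reached -0.62 in fraction 11, 1.12 above fraction 8. No such maximum was found for Gabra6, Cbln3, En2 or Barhl1. Among markers of other cerebellar cell types, Pcp2 had one in fraction 11 (2.83 above fraction 8), Gdf10 in fraction 12 (1.39 above fraction 9) and Car8 in fraction 10 (1.04 above fraction 5), and Slc1a6 had none.

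These second maxima have no test. Those of Cbln1, Etv1 and Neurod1 lie in fraction 12, whose label names a further fraction pooled with it. The part of this pooling was not tested. Fractions 11 and 12 lay on another slide than fractions 3 to 10, and its part in these differences was not tested. Within that slide, from fraction 11 to 12, Cbln1 went from 1.99 to 2.76, Etv1 from 4.67 to 5.36 and Neurod1 from -2.36 to -1.77. Fat2 went the other way, from -0.62 to -1.29. Under median and quantile scaling the 4 differences stayed over 1 log2. With normexp that of Neurod1 was 0.64 and that of Fat2 0.92. The second probe of Etv1 showed the same maximum in fraction 12, 1.22 above fraction 7. The second probe of Neurod1 had its largest rostral level, -2.09, in fraction 10, between 2 fractions that were not well above background, and -3.03 in fraction 12.

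Barhl1, known from granule cell precursors and granule cells, was measured by 2 probes of the same transcript that had different courses. The brighter probe was between 0.27 and 0.86 in coronal fractions 1 to 9, had its highest level of 1.73 in fraction 10 and its lowest of -0.15 in fraction 12. It had no trend in any series (limma adjusted p 0.392 coronal, 0.691 horizontal and 0.122 sagittal). Without coronal fraction 10 it passed (0.0201, with a fitted range of 0.87 log2), as it did without sagittal fraction 9 (0.0201) or 10 (0.0351). The dimmer probe had -2.0, -0.05, 0.81 and 0.66 in coronal fractions 1 to 4, then -1.41 and -3.15, and was not well above background in fractions 7 to 12.

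The dimmer probe was closer to the other 7 genes, though its caudal course differed from theirs. In coronal fraction 1 (-2.0) it was lower than in fraction 5 (-1.41), where the 7 genes were all higher in fraction 1. Fraction 4 held 30.56% of its coronal signal, against 6.4% to 8.71% for the 7 genes. Its highest coronal fraction was at least 29.3-fold above its lowest (limma adjusted p 0.000489), and fractions 1 to 4 held 88.2% of its signal. It also had a trend in the sagittal series (0.0354), and none that passed in the horizontal series (0.215). The sagittal one did not pass without any 1 of fractions 1 to 7 (0.0573 to 0.192), nor under median (0.0512) or quantile scaling (0.0872). Its fitted range was 4.15 to 5.42 in these fits, against 4.90. With normexp, which compresses low signals, its fitted range was 1.26 in the sagittal and 2.93 in the coronal series, against 4.90 and 6.45. Both trends passed there (limma adjusted p 0.0236 and 0.00259). Under median scaling the horizontal trend passed (0.0321). With slide as a term its limma adjusted p was 0.0298 in the coronal and 0.0638 in the sagittal series. Its likeness to the other 7 genes over the 28 fractions was between r = 0.752 and 0.905, while for the brighter probe it was between -0.427 and -0.263.

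Between the 2 Barhl1 probes r was -0.199. Among 3401 genes with 2 tested probes the median r was 0.641, and 5.17% had a lower r than Barhl1. The other 2 genes with several probes did not show this. The probes of Neurod1 had r = 0.97 and those of Etv1 r = 0.922. The brighter Barhl1 probe therefore goes against the granule cell label, and why the 2 probes differ was not tested.

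**Figure D2:**
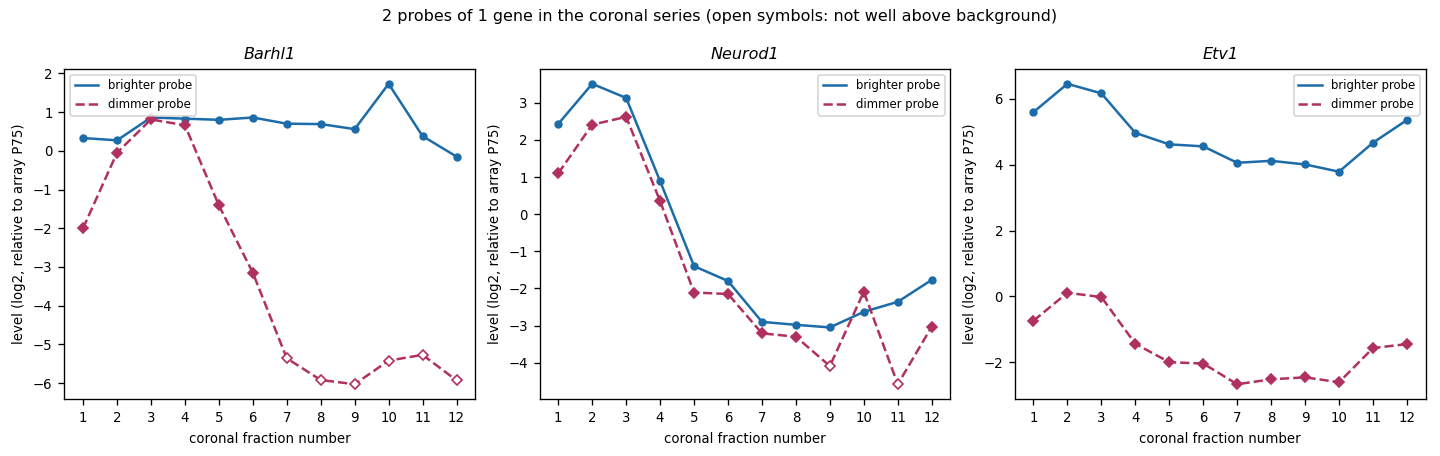
Levels (y axis, log2 relative to the 75th percentile of the array) of the brighter and the dimmer probe of Barhl1, Neurod1 and Etv1 by coronal fraction number (x axis), 1 array per point, with open symbols for values not well above background. The dimmer Barhl1 probe goes from 0.81 in fraction 3 to below detection in fractions 7 to 12 and the brighter one does not, while the pairs of Neurod1 and Etv1 run alike (r = 0.97 and 0.922 over the 28 fractions).

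Over all 28 fractions the 7 genes other than Barhl1 had pairwise r between 0.759 and 0.983, with a median of 0.936 over 21 pairs. The fractions of a series share 1 brain, and all profiles share the scaling of the arrays, so these values are a description. They also use levels that were not well above background, in 13 of the 28 fractions for Cbln3 and 9 for Gabra6. The lowest r was that of Etv1 and Gabra6, and the highest that of Cbln3 and En2. Within the coronal, horizontal and sagittal series the medians over the same 21 pairs were 0.957, 0.96 and 0.967.

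**Figure D3:**
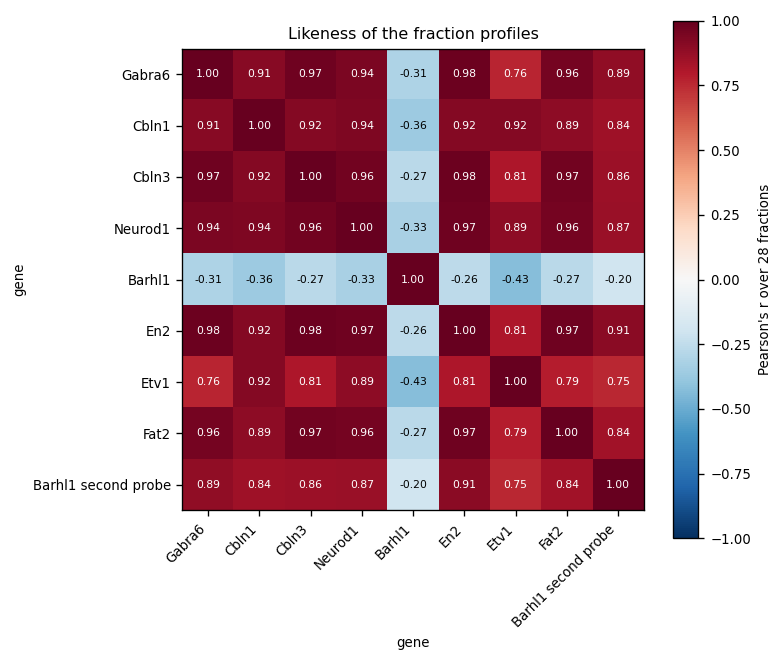
Pearson's r over the 28 fractions between the 8 genes, by the probe used for each, and the second probe of Barhl1. Both axes list the probes and the colour runs from -1 to 1. The 7 genes without Barhl1 have r from 0.759 to 0.983, and the brighter Barhl1 probe has values below 0 with all of them.

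The genes most alike in course were listed for each of the 8, with r over the 28 fractions. Gabra6 was most like Pcp2 (0.982), a Purkinje cell gene, En2 (0.978) and Bcl2l15 (0.976). Cbln1 was most like Ppp1r17 (0.967), also a Purkinje cell gene, Krt25 (0.963) and Zfp385c (0.952). Cbln3 was most like En2 (0.983), Bcl2l15 (0.979) and Cpsf4l (0.976). The leading genes for Gabra6 and Cbln1 are thus known from another cell type, and that for Cbln3 is another of the 8 genes.

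Neurod1 was most like Gprc5c (0.971), En2 (0.969) and Il16 (0.965). En2 was most like Cbln3 (0.983), Il16 (0.979) and Gabra6 (0.978). Fat2 was most like Bcl2l15 (0.979), Crtam (0.973) and En2 (0.97). Etv1 was most like Gria4 (0.967), an AMPA receptor subunit, Pan2 (0.962) and Pxylp1 (0.958), which are none of the genes named for the other 7. The brighter Barhl1 probe was most like Plxna1 (0.93), Nkg7 (0.929) and Prr29 (0.916), and the dimmer one was most like Mab21l1 (0.92), Dao (0.915) and En2 (0.905). The mean centred course of the 8 genes was most like that of Il16 (0.978), Hes3 (0.978), Bcl2l15 (0.976), Cpsf4l (0.971) and Crtam (0.971).

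Many markers of the other cell types of the cerebellum were also highest in the caudal fractions. Of 7 Purkinje cell genes, 7 had a coronal trend and 7 were highest in coronal fraction 2 or 3. Of all tested probes, 33.7% had a coronal trend and 21.0% were highest in these 2 fractions. In the horizontal and sagittal series 3 and 3 of the 7 had a trend, beside 15.8% and 14.7% of all tested probes. Pcp2 had a lowest coronal level of -0.23, a median of 1.73 and a highest of 8.92, and fractions 1 to 4 held 98.5% of its signal. Of 4 Bergmann glia genes 3 had a coronal, 2 a horizontal and 0 a sagittal trend, beside 33.7%, 15.8% and 14.7% of all tested probes. In the sagittal limma fit 2 of the 4 had an unadjusted p under 0.05, as did 10661 of the 32364 tested probes. Gdf10 held 88.4% of its signal in fractions 1 to 4, while Fabp7 was highest in fraction 12. Of 4 interneuron genes measured (Slc6a5 was not named on the array) 4 had a coronal, 2 a horizontal and 2 a sagittal trend. The shares of all tested probes were 33.7%, 15.8% and 14.7%. Highest in fraction 2 were 3 of the 4, where 21.0% of all probes were highest in fraction 2 or 3. Grm2 was highest in fraction 12. The part of these cell types in the levels of the 8 genes was not tested.

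Other granule neuron genes were given by a list. Of its 10 genes 9 had a coronal trend, 8 a horizontal and 2 a sagittal one, beside 33.7%, 15.8% and 14.7% of all tested probes, and 8 were highest in coronal fraction 2 or 3. Of all tested probes, 21.0% were highest in these 2 fractions. The median fitted coronal range of the 10 genes was 3.49 log2, against 0.90 over all tested probes. Zic1, a zinc finger factor, held 75.7% of its signal in coronal fractions 1 to 4 and Gabrd, the delta subunit that pairs with alpha-6, 49.7%. Slc17a7, the vesicular glutamate transporter VGLUT1 of many forebrain neurons, was highest in coronal fraction 10 and held 17.1% of its signal in fractions 1 to 4.

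Of 5 granule precursor genes 5 had a coronal, 1 a horizontal and 1 a sagittal trend, beside 33.7%, 15.8% and 14.7% of all tested probes. Only Gli1 of the 5 was highest in fraction 2 or 3, as were 21.0% of all tested probes. Atoh1, the factor that defines these precursors, was detected above background in 3 of the 28 fractions, 1 of them coronal, so its coronal trend is fitted mostly to undetected values. Mycn was highest in coronal fraction 12 and Ccnd2 in fraction 9. The 3 unipolar brush cell genes all had a coronal trend, 1 a horizontal and 2 a sagittal one, beside the same shares of all tested probes (33.7%, 15.8% and 14.7%). Lmx1a and Otx2 were highest in fraction 3, and Eomes in fraction 12, with a further maximum of 1.29 in fraction 2.

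**Figure D4:**
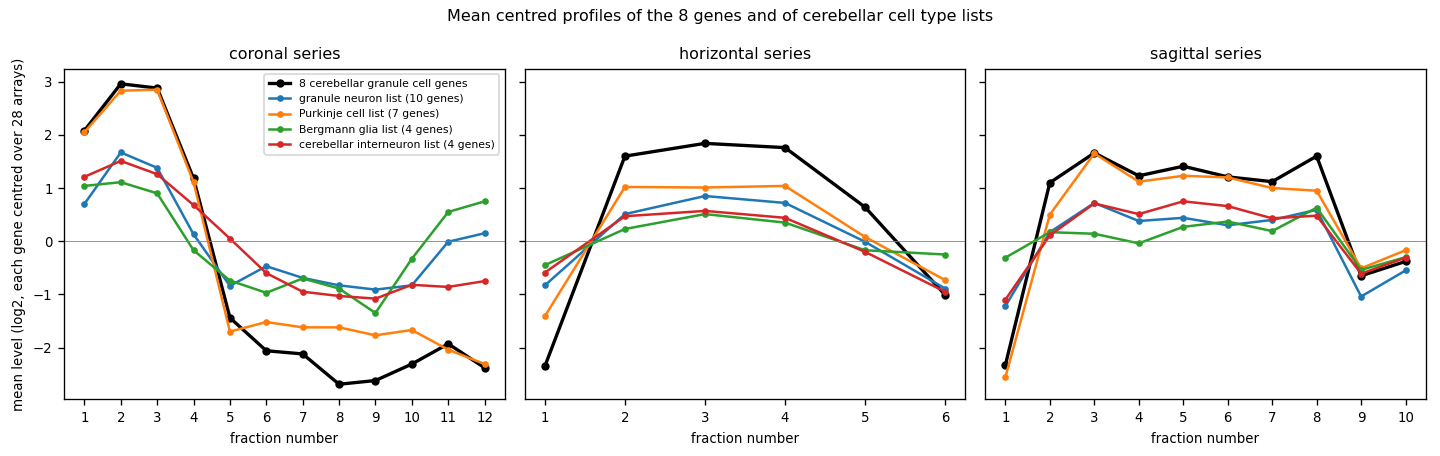
Mean level (y axis, log2, each gene centred on its mean over the 28 arrays) of the 8 genes and of the lists of granule neuron, Purkinje cell, Bergmann glia and interneuron genes, by fraction number (x axis) in each series. In coronal fraction 2 the 8 genes lie at 2.96 on average, and in fraction 8 at -2.69. The Purkinje cell list has its highest means in coronal fractions 2 and 3 too. The Bergmann glia means of 0.55 and 0.75 in fractions 11 and 12 have an SD over its 4 genes of 1.85 and 1.97.

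Relatives of the 8 genes were compared as a list of 16 paralogs, of which 13 were tested. Of these, 9 had a coronal trend, 3 a horizontal and 1 a sagittal one, and 3 (Neurod2, Etv4 and Fat1) were highest in coronal fraction 2 or 3. The shares of all tested probes were 33.7%, 15.8%, 14.7% and 21.0%. The median fitted coronal range was 1.65 log2, against 0.90 over all tested probes. Of the alpha subunits, Gabra3 was highest in coronal fraction 9 (limma adjusted p 0.0329), Gabra4 in fraction 8 (0.00123) and Gabra5 in fraction 12 (0.0362). Cbln2 was highest in coronal fraction 12 (limma adjusted p 0.0378). Neurod2 was highest in fraction 2 (0.00385) and Neurod6 in fraction 6 (0.00234). The paralogs Barhl2 and En1 were detected in 0 of the 28 fractions and Neurod4 in 1.

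Across the 28 arrays, the signal at the 75th percentile was between 135 and 574, an array detected 24822 to 34240 probes, and 0 spots were saturated. The SD of log2 signal between repeat spots of a probe was between 0.056 and 0.085. Of the 8 genes 6 were well above background on all arrays, and Gabra6 and Cbln3 were not. The median of an array relative to its 75th percentile varied from -4.14 to -3.62 in the coronal, -3.85 to -2.79 in the horizontal and -4.04 to -2.53 in the sagittal series. Scaling by the median, by quantiles or with normexp moved the highest fraction of Gabra6 in the coronal (to 3) and sagittal series (to 3), of Cbln1 in the coronal (to 2) and sagittal series (to 3) and of Cbln3 in the horizontal series (to 4), each under at least 1 of the 3, and of none of the other genes.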

How the data were processed

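Cy3-labelled RNA from every fraction was put on its own 1-colour Agilent array. The authors extracted the deposited intensity values, corrected spot by spot for background, with Feature Extraction 10.5.1.1. The authors also deposited a table of log2 values, which for 99.84% of values lay within 0.01 log2 of the arrays' own values scaled by the 75th percentile, after a constant offset per array.

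Spots flagged as outliers, 108 to 176 on each array, were not used. Repeat spots were averaged, and log2 was taken relative to the 75th percentile of the array. A probe counted as well above background where a share of 0.5 or more of its spots had been flagged so. Such detection in 1 or more fractions of every series left 32364 probes for testing, after 130 probes with missing values had been removed. Gene names and the promoter sequences came from RefSeq (GRCm38.p6), matched by accession and by symbol. Of 55681 probes, 27235 (48.9%) were named. Folds against fractions that were not well above background are lower bounds, set against the higher of the probe's own signal and the lowest signal well above background on that array. This limit covers signal over background only, and the number of arrays limits the precision.

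Trends were fitted with limma 3.58.1 in R 4.3.3 as natural cubic splines of fraction number, with 3 degrees of freedom in the coronal and sagittal and 2 in the horizontal series. The F-test of the spline was adjusted by Benjamini-Hochberg at 0.05. The fit was tested on simulated data. Likeness is Pearson's r over the 28 fractions. Tables were made with Python 3.11.15 and pandas 2.3.3, and figures with matplotlib 3.10.9.

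The genes named are the 8 members, the 3 symbols most like each and the 5 most like their mean course, and genes of 14 marker and partner lists (76 genes) given by counts, with values only where a sentence turns on them. The 2 lists of partner genes are not reported here. The members and lists were chosen with earlier results of these data known. The alternatives changed the scaling, background correction, dim-probe filter, spline, probe, slide, values used and the fractions included. Normexp used the median signal, with an offset of 50, since the array files held no mean signal column.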

Additional observations from a re-analysis of the deposited data

Results flagged for a closer look

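In 3 of the 18 sets of fractions asked (the 8 genes and the second Barhl1 probe in the horizontal and sagittal series) 1 fraction lay far from the others by Dixon's ratio of its gap to the whole range, where chance gives about 1 in 20 sets, or 0.9. Fractions are positions in 1 brain and not replicates, so a fraction that stands apart can be a place.

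Gabra6 in sagittal fraction 1 was the lowest at -5.73, not well above background, with the nearest fraction at 0.36 and a ratio of 0.658, or 0.571 with fraction 1 at the detection limit of its array. The brighter Barhl1 probe in the same fraction was the highest at 1.52, with the nearest at 0.88 and a ratio of 0.476. The dimmer Barhl1 probe in horizontal fraction 1 was the lowest at -5.49, not well above background, with the nearest at -1.97 and a ratio of 0.681. At the detection limit of that array the ratio was 0.501, which is under the critical value, so this set rests on an undetected value. The array of sagittal fraction 1 had the lowest signal at the 75th percentile of the 28 (135), and its part in the first 2 values was not tested.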

How the results depend on the processing

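No paired analysis was possible because a fraction number names a position along an axis of 1 brain, and no test compares the series. The 7 coronal trends became 0 with slide as a term. The range of the curve alone was then 15.67 against 11.70 for Gabra6 and 7.33 against 5.85 for Cbln1. Slide and position change together and cannot be told apart, so these larger ranges are not larger effects. The 6 horizontal trends became 0 with 1 spline degree of freedom fewer, in a limma fit that passed 1 probe in all and had 3698 at an unadjusted p under 0.05. The 2 sagittal trends became 0 with the array median (337 probes passed in all), 6 with normexp, 5 of 6 tested with probes well above background in all fractions, 0 with slide as a term and 0 with fractions of 1 slide only. With the array median the sagittal fitted ranges were 4.48 for En2 and 3.36 for Fat2, against 3.96 and 2.73. Leaving out 1 fraction gave 7 to 8 coronal, 0 to 7 horizontal and 0 to 6 sagittal trends. In the sagittal series the count was 0 without fraction 1, 3, 4, 5, 6 or 7, 6 without fraction 9 and 5 without fraction 10, and in the horizontal series 0 without fraction 3 or 4 and 1 without fraction 6. The cause was not tested. A spline with 1 degree of freedom more, chosen after seeing the data, gave 7 coronal and 2 sagittal trends. In the other alternatives run the counts stayed within 1.5 times, at 5 to 8 coronal, 5 to 7 horizontal and 2 sagittal, with 6 genes tested where detection in all fractions was asked, though the 2 sagittal genes were not En2 and Fat2 under quantile normalization or without fraction 2. Of the single genes and probes, 7 coronal, 24 horizontal and 32 sagittal values under an alternative lost their call and 2, 5 and 16 gained one, while 195, 94 and 138 kept their side of the threshold. The slide alternatives were not run for the horizontal series, which lay on 1 slide. Signal over background limits Gabra6, Cbln3 and the dimmer probes of Barhl1 and Neurod1, since their lowest levels are only bounds.

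The number of probes that passed over all also moved with the setting. In the coronal series it was 10910, 241 with slide as a term, 4164 with fractions of 1 slide only and 17330 of 55551 probes (31.2%) with no filter on dim probes. In the horizontal series it was 5115, 19347 with the array median and 9059 with normexp. In the sagittal series it was 4767, 2631 with quantile normalization, 14316 with normexp, 19184 of 55551 (34.5%) with no filter and 2520 with slide as a term.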

Other observations

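Regions outside the cerebellum had their own courses on the same arrays. Of 4 hippocampal genes 3 had a coronal trend, 0 a horizontal and 2 a sagittal one by limma, with 3, 1 and 2 at an unadjusted p under 0.05. For this list and those below, the shares of all tested probes with a trend were 33.7%, 15.8% and 14.7%. Both cortical layer 5 genes, Fezf2 and Bcl11b, had a coronal trend and were highest in coronal fraction 9, where Etv1, also known from that layer, was near its coronal minimum at 4.01. The 3 olfactory bulb genes all had a coronal trend, and Th, the enzyme of dopamine synthesis, was highest in fraction 12, the fraction in which Cbln1, Etv1 and Neurod1 had a second maximum. Of 4 hindbrain genes 4 had a coronal, 0 a horizontal and 0 a sagittal trend by limma. At an unadjusted p under 0.05 these were 4, 0 and 2. Of 5 hypothalamic genes 1 had a coronal, 2 a horizontal and 0 a sagittal trend, with 3, 5 and 2 unadjusted. Beside the adjusted counts stand 33.7%, 15.8% and 14.7% of all tested probes. Beside the unadjusted counts above stand 15297, 11996 and 10661 of the 32364 tested probes in the coronal, horizontal and sagittal series.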
